A study of Mus musculus with 12 samples.

Results

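The CHD (chromodomain helicase DNA-binding) genes encode ATP-dependent chromatin remodelers, and their 9 mouse members, Chd1 to Chd9, were followed here through 4 groups of mesenchymal stem cell (MSC) cultures. The members were found by matching the Ensembl identifiers of the deposited expression table to gene symbols, and all 9 were present among its 54532 genes. The rule itself uses no measured value, but the family was taken up with earlier results of these data known. MSCs had been flushed from the marrow of limb bones of 4-week-old C57BL/6 mice and grown to passage 3. Control cells came from Chd7fl/fl mice (WT). Cells labelled knockout (KO) came from Prx1-cre;Chd7fl/fl mice, so every library carries the floxed Chd7 allele. In the second genotype Cre is driven by the Prx1 promoter, which is active in early limb mesenchyme, and its target is exon 2 of Chd7. RNA was collected 5 days after osteogenic induction (50 µM ascorbic acid, 10 nM dexamethasone, 10 mM β-glycerophosphate) or adipogenic induction (10 µg/ml insulin, 1 µM dexamethasone, 0.5 µM isobutylmethylxanthine). Each of the 4 combinations of genotype and medium has 3 libraries, 12 in all, which are numbered 1 to 3 within a group as in the labels.

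CHD proteins carry paired chromodomains and use the energy of ATP to slide, space or evict nucleosomes. The family has 3 classes. Chd1 and Chd2 act at actively transcribed genes, and the CHD1 protein binds histone H3 trimethylated at lysine 4 (H3K4me3). Chd3, Chd4 and Chd5 carry PHD fingers and are the alternative motor subunits of NuRD, a complex that couples remodelling to histone deacetylation. Chd6 to Chd9 form the third class. Among them Chd7 binds enhancers and is the gene mutated in CHARGE syndrome, and Chd8 is known for binding β-catenin and for its mutation in autism. The Chd9 product was first described in osteoprogenitor cells.

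The members can be compared in the sequence around the DEAH box, the motif of the ATPase motor for which helicases of this type are named. Shown for each gene are 60 coding bases from its longest coding transcript in GENCODE M21 on GRCm38, with the 12 bases of the DEAH box in capitals.
Chd1: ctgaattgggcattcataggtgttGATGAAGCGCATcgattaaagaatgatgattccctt
Chd2: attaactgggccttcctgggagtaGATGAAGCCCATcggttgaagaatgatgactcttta
Chd3: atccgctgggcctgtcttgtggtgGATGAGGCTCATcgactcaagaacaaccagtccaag
Chd4: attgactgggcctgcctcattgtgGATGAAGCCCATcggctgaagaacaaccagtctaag
Chd5: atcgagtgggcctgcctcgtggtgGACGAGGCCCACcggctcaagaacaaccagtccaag
Chd6: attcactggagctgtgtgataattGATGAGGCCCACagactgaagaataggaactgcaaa
Chd7: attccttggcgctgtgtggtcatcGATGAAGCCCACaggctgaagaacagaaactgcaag
Chd8: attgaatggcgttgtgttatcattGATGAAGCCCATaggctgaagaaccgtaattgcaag
Chd9: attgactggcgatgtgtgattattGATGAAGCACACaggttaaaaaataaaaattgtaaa

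Within these windows the highest share of equal bases was 85%, between Chd5 and either Chd3 or Chd4, while Chd3 and Chd4 shared 80%. Chd1 and Chd2 shared 75% of the bases. The pairs among Chd6 to Chd9 shared 73.33% to 81.67%. Between classes the share ran from 48.33% for Chd1 and Chd7 to 73.33% for Chd2 and Chd4. The latter equals the 73.33% of Chd7 and Chd9 within the third class, so these windows do not fully separate the classes. The windows lie at chr17:15738497-15738556 for Chd1, chr7:73490595-73490654 for Chd2, chr11:69356938-69356997 for Chd3, chr6:125108737-125108796 for Chd4 and chr4:152370583-152370642 for Chd5. Those of the third class lie at chr2:161018056-161018115 for Chd6, chr4:8828319-8828378 for Chd7, chr14:52219627-52219686 for Chd8 and chr8:90994547-90994606 for Chd9. Chd2, Chd3, Chd6 and Chd8 are read from the minus strand and the other 5 from the plus strand.

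Expression was given as FPKM, a fragment count divided by gene length and by sequencing depth, so levels can be set against each other between genes. The smallest steps between values correspond to single fragments, and a library then holds 17490794 to 21093449 of them. Differences were tested with limma on log2(FPKM + 1) over the 12871 genes with at least 1 FPKM in at least 3 libraries, with Benjamini-Hochberg adjustment and a threshold of 0.05. Fold changes on this scale understate those of low genes, and Chd5 was too low to be tested. Nothing in the sources says that the 3 libraries of a group came from separate animals or cultures, so p-values measure only the spread between libraries. That spread was estimated for each gene over all 12 libraries, so tests in osteogenic medium also carry the spread of the adipogenic libraries. For genotype in osteogenic medium 1170 genes passed in this way, against 3418 with only the libraries compared.

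Control library 2 in adipogenic medium stood apart from its group, with a mean Pearson's r of 0.941 across genes with the other libraries of its group, against 0.964 to 0.991 for the remaining 11 libraries. All 14 macrophage markers averaged at least 1 FPKM in every group, and their sum exceeded that of the 12 mesenchymal markers throughout. Under osteogenic induction the macrophage sum was 14903 to 15380 FPKM in control and 16320 to 16795 FPKM in knockout libraries. Under adipogenic induction it was 19511, 10141 and 19453 FPKM in control libraries 1 to 3 and 8321 to 9738 FPKM in knockout libraries. The mesenchymal sum stayed between 1274 and 1908 FPKM over all 12 libraries. Among the defining markers, Lepr stayed under 0.5 FPKM in all control libraries in osteogenic medium, as did Thy1 and Nt5e in all knockout libraries in adipogenic medium. The adipocyte markers Plin1, Cidec and Lep stayed under 0.5 FPKM in every library of all 4 groups. Adipoq did so in every group but the knockout libraries in osteogenic medium. The other 4 of 8 adipocyte markers averaged at least 1 FPKM, and the sum of all 8 was 252 to 265 FPKM in control and 182 to 198 FPKM in knockout libraries in osteogenic medium, against 112 to 169 FPKM and 174 to 222 FPKM in adipogenic medium. The osteoblast marker Dmp1 stayed under 0.5 FPKM in every library. The sum of the 8 osteoblast markers was 19.1 to 21.9 FPKM in control and 15.9 to 17.4 FPKM in knockout libraries under osteogenic induction. Under adipogenic induction it was 42.4 to 72.2 FPKM and 47.2 to 58.6 FPKM. Endothelial markers summed to 5.15 to 6.75 FPKM in the 6 control libraries and to 8.55 to 12.0 FPKM in the 6 knockout libraries. Cell cycle markers summed to 282 FPKM in the same control library 2, against 138 and 140 FPKM in the other control libraries and 116 to 132 FPKM in knockout libraries in adipogenic medium. In bulk cultures such as these, fewer cells of a type and less RNA per cell cannot be told apart.

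Chd7 is the gene whose exon 2 is floxed. In transcript ENSMUST00000051558.9, exon 2 lies at chr4:8751324-8753148 on the plus strand and holds 1825 bases, or 17.86% of the transcript. It carries the start codon and 1644 coding bases, which is 548 of 2986 codons. The first 60 coding bases, at chr4:8751505-8751564, and the first 60 bases of exon 3, at chr4:8785342-8785401, are shown because they mark where the floxed exon begins to code and which exon follows it. The capitals mark the start codon and the first ATG from exon 3 onward, which is in the reading frame at codon 563. Use of this ATG was not tested, and the paper describes loss of exon 2 as ending translation.
Chd7 start of coding sequence in exon 2: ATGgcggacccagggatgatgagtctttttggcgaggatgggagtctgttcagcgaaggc
Chd7 start of exon 3: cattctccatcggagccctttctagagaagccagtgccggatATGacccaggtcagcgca

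In osteogenic medium Chd7 was at 2.64, 2.67 and 2.77 FPKM in the control libraries. The libraries labelled knockout had 2.03, 2.35 and 2.28 FPKM. All knockout libraries were lower than all controls there, and the difference of -0.20 on the log2 scale did not pass (limma adjusted p = 0.160). In adipogenic medium the controls had 2.26, 1.81 and 2.23 FPKM and the knockout libraries 2.03, 2.35 and 2.48 FPKM. The groups overlapped, with the lowest value of all 12 libraries in a control, so the libraries are named by their labels throughout. Chd7 passed between genotypes in a single alternative of each medium, at -0.20 in osteogenic medium with only the libraries compared (limma adjusted p = 0.0474) and at 0.22, higher in knockout libraries, in adipogenic medium with each library rescaled to the same sum of FPKM (limma adjusted p = 0.0471). A value for the whole gene does not separate reads by exon, and the deletion itself was not tested here. The paper reports genotyping by PCR and Southern blot, successful deletion judged from CHD7 staining, and a western blot of CHD7 in MSCs.

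The order of the levels was the same in all 4 groups: Chd4, Chd3, Chd1, Chd8, Chd2, Chd9, Chd7, Chd6 and Chd5, from the highest to the lowest. Chd4 ranged from 41.4 to 53.0 FPKM over the 12 libraries and Chd3 from 17.7 to 30.5 FPKM. The other 7 genes stayed under 10 FPKM, a level that Chd1 came closest to with 6.65 to 9.08 FPKM. Chd8 ranged from 5.86 to 6.86 FPKM and Chd2 from 3.66 to 5.14 FPKM. Lower still were Chd9 at 2.98 to 3.88 FPKM, Chd7 at 1.81 to 2.77 FPKM and Chd6 at 1.76 to 2.21 FPKM. Chd5 was detected in every library, at 0.0863 to 0.258 FPKM and 15 to 40 fragments. Neighbours in this order did not overlap within a group, with the exception of Chd7 and Chd6 in knockout libraries in osteogenic medium and in control libraries in adipogenic medium. Chd4 alone made up 43.9% ± 1.49 (SD, n = 3) to 50.9% ± 1.92 (SD, n = 3) of the summed FPKM of the family. Chd8 varied least, with the highest library 1.17 times the lowest, and among tested members Chd3 varied most, at 1.72 times.

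**Figure D1:**
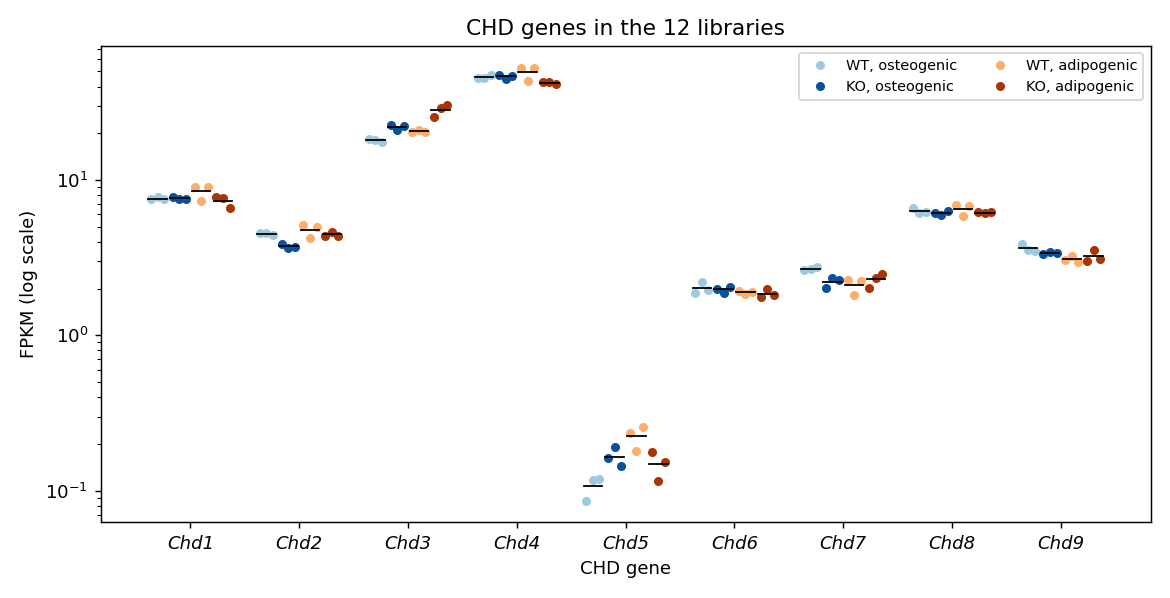
FPKM of the 9 CHD genes on a log axis, with a point for each of the 12 libraries coloured by group and a black line at each group mean (n = 3). Chd4 and Chd3 lie above the other members in every group, and Chd5 lies below 0.3 FPKM throughout.

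The middle of this order depended on the length by which fragments were divided. FPKM appear to rest on the union of all annotated exons, since recovered fragments were whole numbers with those lengths. For Chd9 this union is 23148 bases, against 11565 in its longest coding transcript. The ratio of the union to that transcript is 1.94 for Chd8 and 1.82 for Chd6, but 1.10 for Chd1 and 1.01 for Chd5. Divided by the length of that transcript instead, Chd8 ranked above Chd1 and Chd6 above Chd7 in all 4 groups. Chd9 then ranked above Chd2 in osteogenic medium and below it in adipogenic medium. Some of these orders lay within the spread of the libraries. In control libraries in osteogenic medium Chd6 and Chd7 were at 3.65 ± 0.327 and 3.63 ± 0.0920 (SD, n = 3). Chd9 and Chd2 were at 7.26 ± 0.443 and 7.12 ± 0.126 there. In knockout libraries in adipogenic medium Chd6 and Chd7 were at 3.37 ± 0.224 and 3.09 ± 0.318. The ranks of Chd4, Chd3 and Chd5 stayed the same.

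In osteogenic medium the comparison of genotypes asks how the family stood in cells labelled as lacking Chd7. Chd3 was the only member of 8 tested that passed, or 12.5%, against 9.09% of all genes (4.94% higher and 4.15% lower in knockout libraries). Chd3 was at 18.5, 18.1 and 17.7 FPKM in control libraries and at 22.7, 21.1 and 22.3 FPKM in knockout libraries. Every knockout library was above every control. Chd3 thus rose by 0.27 on the log2 scale (SE 0.0593, limma adjusted p = 0.0195), a fold of 1.21. This call was lost when any of control libraries 1, 2 and 3 or knockout libraries 1 and 3 of that medium was left out, with limma adjusted p up to 0.0829. It was also lost when each library was rescaled to the same sum of FPKM (limma adjusted p = 0.188). The endothelial and macrophage marker sums were also higher, and the adipocyte and osteoblast sums lower, in all knockout libraries of that medium. Taken singly, 11 of the 14 macrophage markers had a negative log2 difference there, with a median of -0.17 (limma, 1 passed as higher and 2 as lower). Lyz2, the largest part of the macrophage sum, went the other way, from a control mean of 9182 FPKM to 11113 FPKM. Of the 10 mesenchymal markers tested, 9 had a positive log2 difference there, and 5 passed as higher and 0 as lower (limma, 50%). The mesenchymal sums of the genotypes overlapped, at 1274 to 1447 FPKM in control and 1425 to 1574 FPKM in knockout libraries. The part of these marker genes in the difference of Chd3 was not tested.

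Chd2 had 4.58, 4.55 and 4.43 FPKM in control libraries in osteogenic medium. In knockout libraries it had 3.85, 3.66 and 3.73 FPKM. The groups were well apart for Chd2, with a log2 difference of -0.22 (SE 0.0607) that lay just outside the threshold (limma adjusted p = 0.0516). It passed in 3 of 9 other settings and in 2 of 12 fits that left out a library, namely without control library 1 or 2 in adipogenic medium (limma adjusted p = 0.00363 for the latter). The ratio of Chd2 to Chd1, its closest relative, was 0.587 to 0.609 in control and 0.482 to 0.498 in knockout libraries, a description that was not tested. Chd9 was also lower in all 3 knockout libraries, at 3.36 to 3.42 FPKM against 3.47 to 3.88 FPKM, with a log2 difference of -0.08 (limma adjusted p = 0.501). Counting either direction, 4 of 8 members had groups that did not overlap, namely Chd3 on the higher side and Chd2, Chd7 and Chd9 on the lower side, against 44.3% of all genes (21% higher and 23.2% lower). Chd1, Chd4, Chd6 and Chd8 overlapped between genotypes, with log2 differences of -0.04 to 0.02. For Chd4, the most abundant member, fragments summed over the group gave a ratio of knockout to control rates of 1.01 (95% exact binomial interval 0.993 to 1.03, counting error only).

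**Figure D2:**
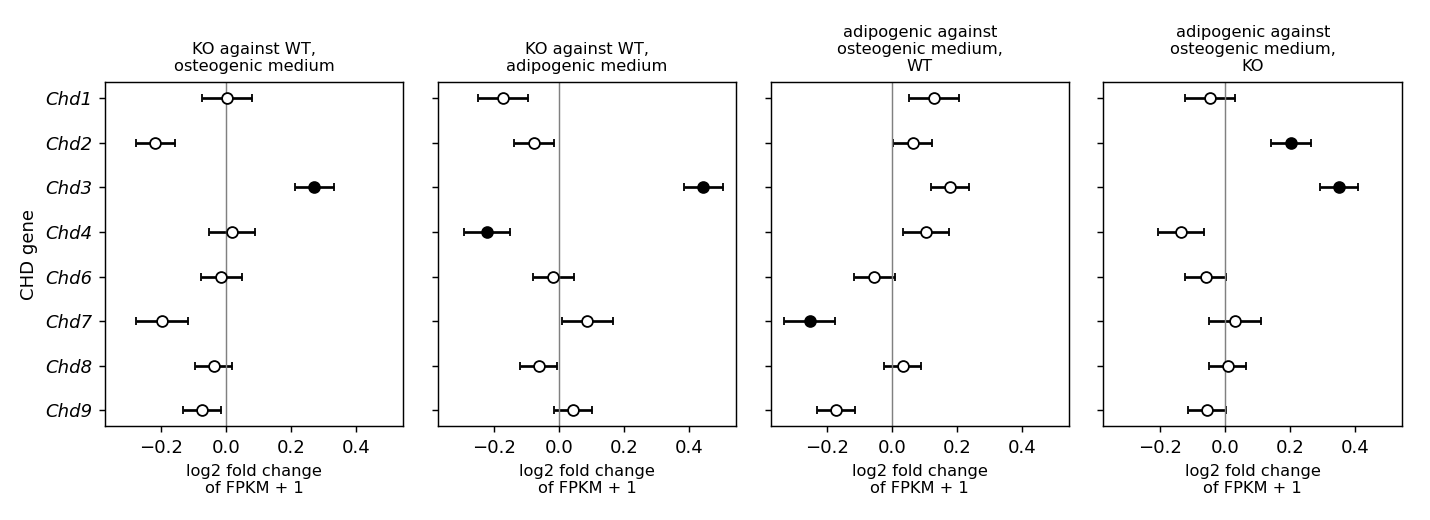
Difference in log2(FPKM + 1) of the 8 tested CHD genes in 4 comparisons, with the first-named condition minus the second on the x axis and bars of 1 standard error from limma. Filled points passed an adjusted p of 0.05: Chd3 in all but the comparison of media in control libraries, Chd4 for genotype in adipogenic medium, and Chd7 and Chd2 for medium in control and knockout libraries.

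In adipogenic medium, 2 of 8 tested members passed between the genotypes (25%), against 33.2% of all genes (16.7% higher and 16.5% lower), and both encode NuRD motors. Chd3 was at 20.3, 21.0 and 20.5 FPKM in control libraries. Its values in knockout libraries were 25.6, 29.2 and 30.5 FPKM. The lowest knockout library was well above the highest control, and Chd3 rose by 0.44 on the log2 scale (SE 0.0593, limma adjusted p = 0.000453), a fold of 1.36. The call for Chd3 held in all 9 other settings and in all 12 fits that left out a library, with a log2 difference between 0.39 and 0.62. The endothelial and adipocyte marker sums were higher, and the macrophage and cell cycle sums lower, in the knockout libraries than in all controls of that medium. Taken singly, 8 of the 14 macrophage markers had a negative and 6 a positive log2 difference there (limma, 2 passed as higher and 7 as lower). Lyz2, the largest part of the macrophage sum, fell from a control mean of 11249 FPKM to 4280 FPKM. Of the 10 mesenchymal markers tested, 4 passed as higher and 2 as lower (60%, beside 33.2% of all genes). The part of these marker genes in the rise of Chd3 was not tested.

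Chd4 had 53.0, 43.2 and 52.8 FPKM in control libraries in adipogenic medium. In knockout libraries it had 42.8, 42.5 and 41.4 FPKM. The knockout libraries were all lower, but control library 2 was within 1 FPKM of the highest of them. Chd4 fell by 0.22 on the log2 scale (SE 0.0707, limma adjusted p = 0.0351). Without control library 2 the decrease was 0.32 (limma adjusted p = 7.34e-05), while leaving out control library 1 or 3, any knockout library of that medium, or any of control libraries 1 and 2 and knockout library 3 of osteogenic medium ended the call, at limma adjusted p of up to 0.122. After rescaling to the same sum of FPKM, which moved the median of all genes from -0.01 to 0.14, the difference for Chd4 was -0.04 (limma adjusted p = 0.619) and that for Chd3 was 0.62. The macrophage sum was highest in control libraries 1 and 3, in which Chd4 was also highest, and its part in the difference was not tested.

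The balance of the NuRD motor transcripts can be read from the ratio of Chd3 to Chd4. Under osteogenic induction this ratio was 0.410, 0.398 and 0.375 in control and 0.476, 0.471 and 0.474 in knockout libraries. In adipogenic medium it was 0.383, 0.486 and 0.388 in control libraries and 0.600, 0.685 and 0.736 in knockout libraries. The knockout libraries were above the controls in both media, and control library 2 in adipogenic medium had the highest ratio of the 6 controls. This ratio was chosen after its values were seen and was not tested. The share of Chd3 in the summed FPKM of the family was 19.9% ± 0.511 (SD, n = 3) in control and 23.5% ± 0.263 (SD, n = 3) in knockout libraries under osteogenic induction. It was 21.3% ± 2.10 (SD, n = 3) and 29.5% ± 2.08 (SD, n = 3) in adipogenic medium. The sum itself differed little, with group means of 90.9 to 97.3 FPKM.

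**Figure D3:**
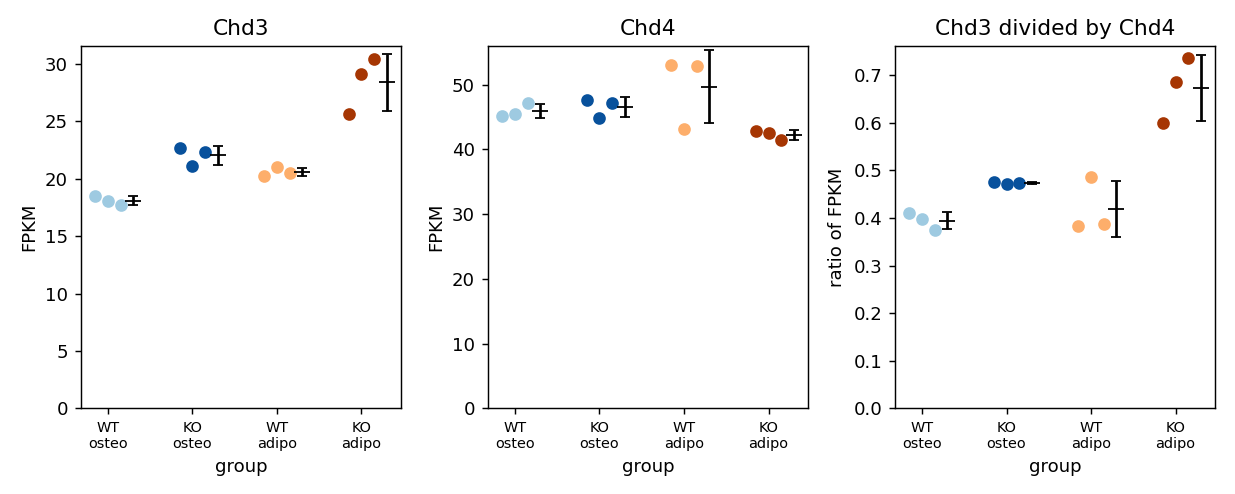
FPKM of Chd3 and of Chd4, and the ratio of Chd3 to Chd4, in each library, with the group mean and SD beside the 3 points of a group and all axes starting at 0. The ratio is 0.600 to 0.736 in knockout libraries in adipogenic medium and at most 0.486 in the other 9 libraries.

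The remaining members did not pass between genotypes in adipogenic medium. Chd1 had 8.97, 7.28 and 9.08 FPKM in control libraries and 7.72, 7.69 and 6.65 FPKM in knockout libraries. Only control library 2 brought the groups of Chd1 into overlap, and the log2 difference was -0.17 (limma adjusted p = 0.111). Without that library 5 of 8 members passed, Chd1 at -0.27, Chd2 at -0.15 and Chd8 at -0.13 on the log2 scale being added (limma adjusted p = 0.00308, 0.0167 and 0.0250), and the calls over all genes rose from 4276 to 6569. In Chd2 the control values were 5.14, 4.23 and 4.97 FPKM and the knockout values 4.36, 4.65 and 4.39 FPKM. Control library 2 was again the lowest of its group for Chd2, as it was for Chd4, Chd5, Chd6, Chd7 and Chd8, but it was the highest for Chd3 and Chd9. Chd6, Chd7, Chd8 and Chd9 had log2 differences of -0.02, 0.09, -0.06 and 0.04. Groups did not overlap for 2 of the 8 members, Chd3 and Chd4, against 38.6% of all genes (20.2% higher and 18.4% lower).

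**Figure D4:**
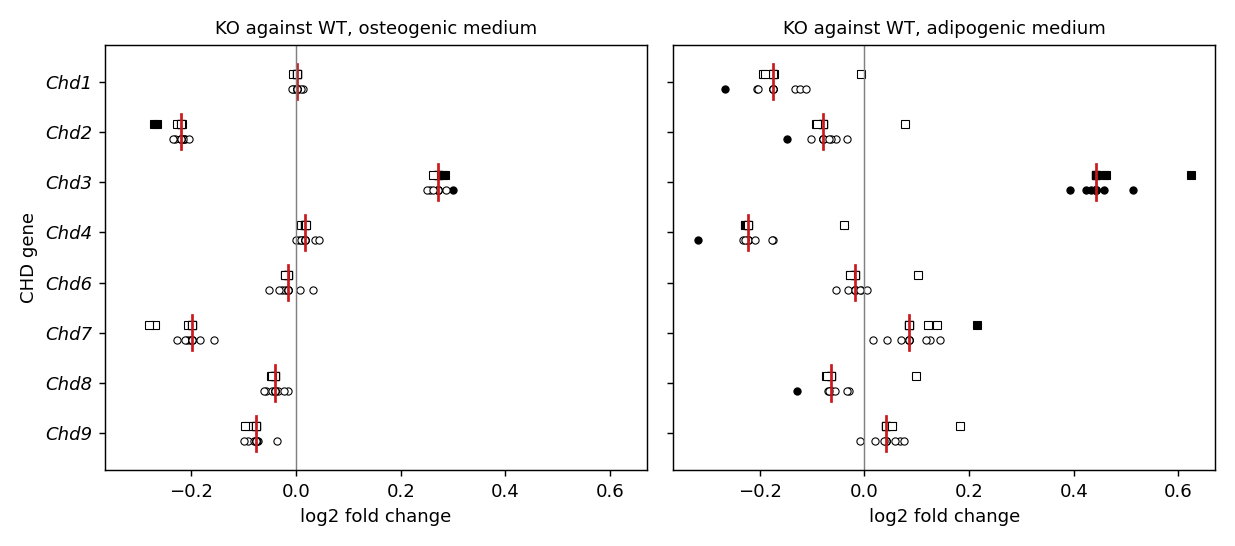
Difference in log2(FPKM + 1) between knockout and control libraries for the 8 tested CHD genes under each alternative, with the reported value as a red line. Circles leave out a library each, squares are the other settings, and filled symbols passed an adjusted p of 0.05. Chd3 passed in all 21 alternatives in adipogenic medium, and no other gene passed in all alternatives of either medium.

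The test of whether the genotype difference itself differed between the media found 0 of 8 members past the adjusted threshold, where 20.4% of all genes passed (10.9% with a higher and 9.58% with a lower difference in adipogenic medium). The count was 0 with voom on recovered fragments too. At an unadjusted limma p under 0.05 there were 2 members, Chd4 and Chd7, and 4491 of all 12871 genes. The knockout difference of Chd4 was lower in adipogenic than in osteogenic medium by 0.24 on the log2 scale (limma adjusted p = 0.118). That of Chd7 was higher by 0.28 (SE 0.111, limma adjusted p = 0.0987). The rise of Chd3 was larger in adipogenic medium by 0.17 (SE 0.0838, limma adjusted p = 0.171). Without control library 2 in adipogenic medium, Chd4 and Chd1 passed at -0.34 and -0.27 (limma adjusted p = 0.000521 and 0.0172). Without knockout library 1 in that medium, Chd3 passed at 0.24 (limma adjusted p = 0.0261). Rescaled to the same sum of FPKM, Chd7 and Chd2 passed at 0.42 and 0.30 (limma adjusted p = 0.0218 and 0.0404).

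Between the media in control cells, Chd7 was the single member of 8 that passed, against 22.8% of all genes (10.5% higher and 12.3% lower in adipogenic medium). The values of Chd7 given above were lower in all 3 control libraries in adipogenic medium than in all 3 in osteogenic medium. Chd7 fell by 0.25 on the log2 scale (SE 0.0787, limma adjusted p = 0.0431). The call rested on few libraries, since it was lost in 11 of 12 fits that left out a library, at limma adjusted p of up to 0.115. Chd9 had 3.88, 3.53 and 3.47 FPKM in osteogenic and 3.07, 3.25 and 2.98 FPKM in adipogenic medium, lower in every library, with a log2 difference of -0.17 (limma adjusted p = 0.0567). Chd3 was higher in every library in adipogenic medium, by 0.18 (limma adjusted p = 0.0553). Groups did not overlap for these 3 members, against 34.4% of all genes (16.2% higher and 18.3% lower). Without control library 2 in adipogenic medium the members called were Chd1, Chd2, Chd4 and Chd9, at 0.22, 0.13, 0.20 and -0.20 (limma adjusted p = 0.00873, 0.0295, 0.00149 and 0.0228), and Chd7 was at -0.18 (limma adjusted p = 0.059). In that fit 6156 of 12871 genes passed, against 2935 with all libraries.

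In knockout cells 2 of 8 members passed between the media, against 27.9% of all genes (13.9% higher and 14% lower), and both were higher in adipogenic medium. Chd3 had 22.7, 21.1 and 22.3 FPKM in osteogenic and 25.6, 29.2 and 30.5 FPKM in adipogenic medium. It rose by 0.35 on the log2 scale (SE 0.0593, limma adjusted p = 0.00194), with no overlap, and passed in all 20 alternatives. Chd2 rose by 0.20 (SE 0.0607, limma adjusted p = 0.0313), from 3.66 to 3.85 FPKM in osteogenic to 4.36 to 4.65 FPKM in adipogenic medium. Leaving out any of the 6 knockout libraries ended the call for Chd2, at limma adjusted p of up to 0.0982. Chd4 was lower in every knockout library in adipogenic medium, by 0.14 (limma adjusted p = 0.182, and 0.00845 without control library 2 in that medium). Groups did not overlap for Chd2, Chd3 and Chd4, against 52.5% of all genes (26% higher and 26.5% lower). Chd7, which passed in control cells, differed by 0.03 (limma adjusted p = 0.816). The comparisons of media and of genotypes share libraries, so they are not independent of each other.

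Chd5, a NuRD motor known mainly from neurons and testis, was listed above 0 in all 12 libraries at a level close to the counting limit. Under osteogenic induction it had 0.0863, 0.118 and 0.118 FPKM in control and 0.163, 0.190 and 0.143 FPKM in knockout libraries. In adipogenic medium it had 0.235, 0.179 and 0.258 FPKM in control and 0.178, 0.116 and 0.154 FPKM in knockout libraries. The knockout libraries were thus all above the controls in the first medium and all below them in the second, although the closest values of the second medium differ by under 1%. Summed over the group, 86 knockout and 54 control fragments in osteogenic medium gave a ratio of rates of 1.54 (95% exact binomial interval 1.09 to 2.21). In adipogenic medium 81 and 113 fragments gave 0.678 (0.503 to 0.910). Between media the ratio was 2.06 (1.47 to 2.90) in control and 0.902 (0.658 to 1.24) in knockout cells. These intervals cover counting error only. Where limma was run with no filter on low values, Chd5 was higher in adipogenic than in osteogenic medium in control cells, by 0.14 on the log2(FPKM + 1) scale (limma adjusted p = 0.0324), and did not pass between genotypes (limma adjusted p = 0.369 in osteogenic and 0.113 in adipogenic medium).

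Chd6 and Chd8 passed in none of the 5 comparisons as fitted over all 12 libraries. Under osteogenic induction Chd6 had 1.86 to 2.21 FPKM in control and 1.88 to 2.04 FPKM in knockout libraries. Under adipogenic induction it had 1.84 to 1.94 FPKM and 1.76 to 1.99 FPKM. Its ratio of knockout to control rates was 0.985 (95% exact binomial interval 0.926 to 1.05) in osteogenic and 0.984 (0.923 to 1.05) in adipogenic medium. Chd8 had ratios of 0.968 (0.932 to 1.01) and 0.956 (0.922 to 0.992). The groups of both genes overlapped in all 4 comparisons. A p that misses the threshold does not show equal levels, and the counting intervals alone span several percent.

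Other parts of the remodelling machinery give the setting. The 12 NuRD subunits other than CHD, all tested, held 0 that passed between genotypes in osteogenic medium over all 12 libraries (limma and voom, with 1 at an unadjusted limma p under 0.05). Their median log2 difference was 0.07. With only the libraries compared 1 was higher and 1 lower, and without control library 2 of adipogenic medium 2 were higher and 1 lower. Of all 12871 genes 3418 and 2854 passed in these fits. In adipogenic medium 2 were higher and 2 lower, which at 33.3% is close to the 33.2% of all genes. Hdac1, a deacetylase of the complex, fell by 0.57 (limma adjusted p = 0.00141), from 29.5 ± 4.58 to 19.3 ± 0.774 FPKM (SD, n = 3). Mbd2, which binds methylated DNA, fell by 0.24 (limma adjusted p = 0.00643), and Cdk2ap1, a small subunit, rose by 0.31 (limma adjusted p = 0.0126). The call for Hdac1 held in all 21 alternatives. That for Mbd2 was lost in 2 of 9 other settings, with a difference of -0.06 after rescaling to the same sum of FPKM (limma adjusted p = 0.604), and that for Cdk2ap1 in 1 of 9.

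The other ATPases of the SNF2 type, the superfamily to which CHD proteins belong, were called in 1 direction in adipogenic medium. Of 21 tested, 0 were higher and 10 lower in knockout libraries in adipogenic medium (47.6%, with a median of -0.21), where 16.5% of all genes were lower. Hells, which supports DNA methylation, fell by 0.57 (limma adjusted p = 0.00790), Ercc6l, a mitotic helicase, by 0.46 (limma adjusted p = 0.0385) and Ercc6, a repair factor, by 0.30 (limma adjusted p = 0.0147). With a library left out, the call was made in 12 of 12 fits for Hells, 11 for Ercc6 and 3 for Ercc6l. In the 9 other settings it was made in 7 each for Hells and Ercc6 and in 6 for Ercc6l. In place of 10, the count was 4 without knockout library 3 of that medium, 5 without control library 1, 6 without control library 3, knockout library 1 or knockout library 2, 11 without control library 2, 1 with only the libraries compared and 0 after rescaling to the same sum of FPKM. Over all 12871 genes 4276 passed as first fitted and 2791 without knockout library 3. Without control library 2 it was 6569, with only the libraries compared 1671 and after rescaling 4152. Cell cycle markers moved in the same direction, with 0 of 8 higher and 4 lower and a median of -0.57, and their part in the result was not tested. In osteogenic medium 1 of the 21 passed (4.76%, against 9.09% of all genes), Shprh at -0.23 (limma adjusted p = 0.0426), a call made in 5 of 9 other settings and in 2 of 12 fits that left out a library (limma adjusted p up to 0.187).

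SWI/SNF, the remodeler that evicts nucleosomes at enhancers and promoters, had 24 of 26 subunits tested. In osteogenic medium 1 was higher (Smarcc1 at 0.17) and 1 lower (Smarcd2 at -0.20), with limma adjusted p of 0.0346 and 0.0410, or 8.33% against 9.09% of all genes. Neither passed when any of the 6 osteogenic libraries was left out, with either replicate block or after rescaling to the same sum of FPKM. In adipogenic medium 2 were higher and 6 lower, a total of 33.3% beside 33.2% of all genes, with a median of -0.08. Smarcd3, a subunit of muscle and heart forms of the complex, rose by 0.73 (limma adjusted p = 0.00144). Smarcc1, a core scaffold, fell by 0.33 (limma adjusted p = 0.000369) and Arid1a, the DNA-binding subunit, by 0.28 (limma adjusted p = 0.0214). With the same sum of FPKM per library, 4 SWI/SNF subunits were higher and 0 lower. Over all 12871 genes 3252 were then higher and 900 lower.

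The other complexes are read against the same shares of all genes, 9.09% in osteogenic and 33.2% in adipogenic medium. Of 9 ISWI subunits, 0 passed in osteogenic medium with limma or voom over all 12 libraries (1 at an unadjusted limma p under 0.05). In adipogenic medium 2 were lower, Baz2b at -0.38 and Baz1b at -0.31 (limma adjusted p = 0.00219 and 0.000440). Of 20 subunits of the INO80, SRCAP and EP400 complexes, which exchange histone variants, Actr5 was lower in osteogenic medium at -0.22 (limma adjusted p = 0.0278). The call for Actr5 was made in 5 of 9 other settings and in 6 of 12 fits that left out a library. In adipogenic medium 3 of these subunits were lower, Actr6 at -0.26, Ep400 at -0.24 and Brd8 at -0.21 (limma adjusted p = 0.0211, 0.0276 and 0.0140). After rescaling to the same sum of FPKM 0 of these 20 passed in adipogenic medium, and their median turned from -0.05 to 0.12. Among 16 subunits of the COMPASS complexes, which write H3K4 methylation, 0 passed with limma over all 12 libraries in osteogenic medium. With voom 2 passed, 6 had an unadjusted limma p under 0.05, and 14 had a negative difference. Of all genes there, 1207 of 12861 passed with voom. At an unadjusted limma p under 0.05 there were 2993 of 12871, and 6652 had a negative difference. In that medium, with only the libraries compared, 7 COMPASS subunits were lower and 0 higher, and 2 ISWI subunits lower and 1 higher. Without control library 2 of adipogenic medium 5 COMPASS subunits were lower and 0 higher, with the same ISWI counts. Of all 12871 genes 3418 and 2854 passed in these fits. In adipogenic medium 15 of the 16 subunits were negative, as were 6713 of 12871 genes tested, and 3 subunits passed (18.8%), Setd1b at -0.48, Kdm6a at -0.27 and Hcfc1 at -0.17 (limma adjusted p = 0.00936, 0.0229 and 0.0308). Their median of -0.09 turned to 0.08 after the rescaling, with 1 call. CHD genes are long, and among the 3585 tested genes with at least 6000 exonic bases 10.9% passed in osteogenic and 36.2% in adipogenic medium.

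Across the 12 libraries some members varied together. Chd1 and Chd4 had a Pearson's r of 0.87 on the log2(FPKM + 1) scale, Chd4 and Chd8 of 0.75, and Chd1 and Chd8 of 0.71. Chd3 and Chd4 had an r of -0.54. These points share libraries and group structure, so the values are descriptions. With group means removed, r was 0.85 for Chd1 and Chd4, 0.84 for Chd4 and Chd8, 0.88 for Chd2 and Chd4, and -0.20 for Chd3 and Chd4.

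For each tested member, the genes most alike over the 12 libraries were taken from all those tested. Chd3 was closest to Col5a2, which encodes a fibrillar collagen chain (r = 0.98, 119.5 to 212 FPKM). Chd7 was closest to Tlr8, an endosomal receptor for RNA in innate immune cells (r = 0.95, 15.3 to 32.9 FPKM), and Ncor1, a corepressor of nuclear receptors (r = 0.93). Chd4 was closest to Upp1, a uridine phosphorylase (r = 0.97), and the SWI/SNF subunit Arid1a (r = 0.96). Chd1 was closest to C920009B18Rik and Ireb2, an iron regulator (r = 0.95 for each), and Chd2 to Blzf1 and Ypel5 (r = 0.96 and 0.95). Chd8 was closest to Rsbn1 and the Golgi calcium pump gene Atp2c1 (r = 0.95 and 0.94), and Chd9 to Zfp709 and the small GTPase gene Rab19 (r = 0.94 and 0.93). Chd6 had the loosest match, with Gm44053 and Gm11423 (r = 0.87 and 0.83). These are the highest r among 12871 genes over only 12 libraries and are descriptions.

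Neighbouring annotation limits a few members. The exons of 1810026B05Rik, at 1.12 to 1.96 FPKM, overlap those of Chd2 by 2628 bases on the same strand, and those of the antisense gene Gm44686, at 1.06 to 3.88 FPKM, by 130 bases. Reads of these genes and of Chd2 could have been split or merged, and the use of strand is not given in the sources used here. Antisense Gm26590 overlaps Chd8 by 953 bases and Gm45641 overlaps Chd9 by 196 bases, but both stayed under 0.25 FPKM. Gm13645 and Mir7045, which overlap exons of Chd5 and Chd4, were listed at 0 in all 12 libraries. Near Chd5, Rpl22 starts within 20 kb and was at 50.7 to 59.7 FPKM.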

How the data were processed

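The authors deposited FPKM for 54532 mouse genes in 12 RNA-seq libraries (NEBNext Ultra, HiSeq). The submitters' processing notes name Bowtie 0.12.2 and mm9, while the paper lists HISAT2 and Ballgown. The filters and strand use are not given in the sources used here. Samples were grouped by their labels. GENCODE M21 gave a symbol for 54409 identifiers, and coordinates are those of GRCm38. With its exonic lengths, 98.2% to 98.4% of the values under 30 fragments were whole to within 0.02 fragments (4% by chance). The deposited scale already equalised median ratios between libraries. Genes were tested with limma 3.58.1 in R 4.3.3 on log2(FPKM + 1) with a trend, 4 group means and Benjamini-Hochberg adjustment. On simulated data for the osteogenic comparison, 173 of 200 changed genes and 7 unchanged genes of 12871 were called. Of the genes raised 1.5-, 2- and 4-fold, 38, 41 and 49 were called, and the rest were lowered. Only genes of higher mean FPKM were changed. The simulation therefore cannot show how often the smaller differences of the CHD genes, or changes in low genes, would be called.

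The members and lists were chosen with earlier results of these data known. Named are the 9 CHD genes, genes overlapping them or starting within 20 kb, up to 3 genes per chromatin list and comparison with the largest change that passed, and up to 2 most alike genes. Alternatives were a pseudocount of 0.1, no filter, rescaling to the same sum (TPM), median ratios, a constant prior variance, fits of the compared libraries alone, a block for replicate number, voom on recovered fragments and each library left out. A block within each medium and transcript lengths were added after seeing the data.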

Additional observations from a re-analysis of the deposited data

Results flagged for a closer look

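The genotypes differed in Chd5 in opposite directions in the 2 media. The mean of the knockout libraries was higher than that of the controls by 0.0580 FPKM in osteogenic medium, and in adipogenic medium the difference was -0.0748 FPKM, with no overlap between groups in either. The difference was not tested in the filtered table, where Chd5 is too low. With no filter on low values the interaction was -0.16 on the log2(FPKM + 1) scale (limma adjusted p = 0.0693). It rests on 54 to 113 fragments per group.

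In the interaction test of limma, which 20.4% of all genes passed, the genotype difference of 9 other chromatin genes, up to 3 from each list, differed between the media. Smarcc1, at -0.50 (adjusted p = 0.000455), was higher in knockout libraries in osteogenic and lower in adipogenic medium. Smarcd3 had an interaction of 0.69 (limma adjusted p = 0.0190) and Smarcd2 of 0.26 (limma adjusted p = 0.0375). Baz1b was at -0.24 and Brd8 at -0.24 (limma adjusted p = 0.0163 and 0.0489). Bptf was at 0.21 and Ttf2 at -0.42 (limma adjusted p = 0.0499 and 0.0282). Ercc6l was at -0.68 and Hells at -0.61 (limma adjusted p = 0.0455 and 0.0388). Of 12 fits that left out a library, the call held in all for Smarcc1, Smarcd3 and Baz1b, in 5 for Ttf2, in 3 for Hells, in 2 each for Ercc6l, Smarcd2 and Bptf, and in 1 for Brd8. Of 8 other settings, it held in all for Smarcc1 and Smarcd3 and in 6 each for Baz1b, Ercc6l and Ttf2. It held in 4 each for Hells and Smarcd2, in 3 for Brd8 and in 2 for Bptf.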

How the results depend on the processing

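Of the CHD calls, those of Chd3 for genotype in adipogenic medium and for medium in knockout cells held under every alternative run. The others depended on the setting. For genotype in osteogenic medium, 2 members passed with a pseudocount of 0.1 or with voom, 3 with only the libraries compared and 0 after rescaling to the same sum of FPKM, and 0 to 2 with a library left out. The calls over all genes changed too, out of 12871 tested unless another number is given. They were 1150, 1207 (of 12861), 3418 and 526 in these settings, and 532 to 2854 with a library left out. In adipogenic medium 1 member passed with no filter, with only the libraries compared or with a replicate block within each medium, and 1 to 5 with a library left out. The calls over all genes were 3808 (of 30520), 1671 and 3889 there, and 2791 to 6569 with a library left out. The interaction gave 2 members after rescaling and 0 to 2 with a library left out. Over all genes it gave 2280 after rescaling and 1798 to 5434 with a library left out. For medium in control cells 0 members passed with only the libraries compared or with the replicate number as a block, 2 with voom and 0 to 4 with a library left out. The calls over all genes were 490, 2907 and 2726 (of 12861) in these settings, and 1361 to 6156 with a library left out. In knockout cells 1 member passed with no filter and 1 to 3 with a library left out, where 3277 (of 30520) and 2500 to 5466 of all genes passed. No source says what equal replicate numbers mark, and they were not taken as pairs, since the correlation of the deviations of same-numbered libraries ran from -0.29 to 0.47. Of the control libraries 1 of 3 in osteogenic and 2 of 3 in adipogenic medium matched their own number best among the knockout libraries. With the replicate block 1018 genes passed in osteogenic and 4167 in adipogenic medium, against 1170 and 4276 without it, and with the block within each medium 744 and 3889.

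Rescaling to the same sum moved the median of all genes from -0.01 to 0.14 for genotype in adipogenic medium, from 0.00 to 0.16 for the interaction and from 0.01 to -0.10 for medium in control cells. Of the genes called in adipogenic medium 78.3% were then higher in knockout libraries, against 50.4% before. The osteogenic call count over all genes fell to 526. Directions that turned after rescaling were those of Chd1 in osteogenic medium (-0.0061), of Chd2, Chd6, Chd8 and Hcfc1 in adipogenic medium (0.077, 0.10, 0.099 and 0.016), of Chd1, Chd6 and Chd8 in the interaction (0.00068, 0.12 and 0.15), of Chd2, Chd4 and Chd8 for medium in control cells (-0.047, -0.026 and -0.083) and of Chd1 in knockout cells (0.011). With a library left out, the genotype difference ran from -0.0083 to 0.013 for Chd1 and -0.051 to 0.032 for Chd6 in osteogenic medium, and from -0.053 to 0.0056 for Chd6 and -0.0077 to 0.075 for Chd9 in adipogenic medium. The interaction ran from -0.051 to 0.033 for Chd6 and -0.088 to 0.0094 for Chd8. The difference between media ran from -0.0013 to 0.097 for Chd8 in control cells, and in knockout cells from -0.078 to 0.016 for Chd1, -0.013 to 0.089 for Chd7 and -0.0083 to 0.029 for Chd8. At these settings the turned values did not pass the test, although Hcfc1 passed as first fitted. The cause of the changes was not tested. Divided by transcript length, the levels of the CHD genes summed to 124 in place of 94.5 FPKM on average. Chd5, with 15 to 40 fragments per library, is limited by depth.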

Other observations

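Between the media in knockout cells, the SNF2-type ATPases other than CHD were again lower, with 0 of 21 higher and 9 lower in adipogenic medium in limma and a median of -0.16, where 14% of all genes were lower. In control cells 0 of the 21 passed with limma, and 3 had an unadjusted p under 0.05. Zranb3, a translocase at stalled replication forks, fell by 0.97 in knockout cells (limma adjusted p = 0.0156), Ercc6l by 0.85 (limma adjusted p = 0.00224) and Hells by 0.72 (limma adjusted p = 0.00260). Of the NuRD subunits, Hdac1 rose by 0.41 in control cells (limma adjusted p = 0.0141), and in knockout cells Rbbp7 fell by 0.47 and Gatad2a by 0.19 while Mta2 rose by 0.14 (limma adjusted p = 0.0169, 0.0151 and 0.0432). Cell cycle markers were lower in the same comparison of knockout cells, with 0 of 8 higher and 7 lower and a median of -0.95, and their part in the result was not tested. These comparisons share the knockout or control libraries with those of the genotypes.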
